A study of Blattella germanica with 16 samples.

Results

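Fat body libraries from females of the German cockroach Blattella germanica that received double-stranded RNA (dsRNA) against insulin receptor 1 (dsInR1) were compared directly with those that received dsRNA against insulin receptor 3 (dsInR3). All 4 dsInR1 and all 4 dsInR3 libraries entered, 8 of the 16 in the series, and they were chosen by their labelled treatment and by no measured value. The other libraries of the series are 4 of dsInR2 and 4 of a control dsRNA (dsMock). In every group the abdomen was injected with dsRNA 2 times, 7 days apart, and 2 µg is the amount the series design gives, so no group was free of dsRNA. The series design starts the injections when the females began to carry an egg case (ootheca), has the ootheca taken off on day 12 and dissects on day 5 of the next reproductive cycle. In the treatment protocol the injections fall 12 and 5 days ahead of extraction, and which of these timings holds is unresolved. The age of the females and the number of females behind each library are not given in the sources used here. Nothing in them says that the libraries of a group came from separate females, so the spread that p-values measure is the one between these samples, and it may be technical. The comparison asks whether the fat body responds differently to the loss of 1 receptor than to the loss of the other, and, where no difference is found, how large a difference the data exclude.

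Insulin-like peptides bind receptor tyrosine kinases on the cell surface, which signal through phosphoinositide kinases and Akt. Akt keeps the transcription factor FoxO out of the nucleus and feeds the TOR pathway, so that sugar is turned into stored lipid and glycogen and protein synthesis is favoured. The insect fat body combines roles of liver and adipose tissue, and in a reproducing female it also makes the yolk and hemolymph proteins taken up by the eggs.

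Libraries held 16.5 to 21.6 M reads in dsInR1 and 15.5 to 21.0 M in dsInR3. They are named by the number in their column, 2, 5, 6 and 7 for dsInR1 and 3, 5, 6 and 7 for dsInR3. A single gene annotated only as a hypothetical protein, C0J52_15443, took 58.2 ± 2.91% of the reads in dsInR1 and 50.1 ± 10.1% in dsInR3 (SD, n = 4 each). The difference of 8.04 percentage points did not pass an exact two-sided permutation test (p = 0.0857; 4 against 4 cannot go below 0.0286), and it was 3.03 points without dsInR3 library 3, which had 35.1% against 53.8 to 56.9% in the others. Apolipophorin, the lipid carrier of the hemolymph that fat body secretes, stood at 26669 ± 4627 CPM in dsInR1 and 27735 ± 2606 CPM in dsInR3. CPM, the share of a library's reads scaled to counts per 1e6, are given after TMM scaling of the 8 libraries. Summed markers of other tissues, on this scale, were 85.1 to 197 CPM in dsInR1 and 83 to 181 CPM in dsInR3 for muscle, 370 to 461 CPM in dsInR1 and 256 to 453 CPM in dsInR3 for hemocytes, and 342 to 616 CPM in dsInR1 and 476 to 759 CPM in dsInR3 for gut and Malpighian tubule. They were 247 to 282 CPM in dsInR1 and 236 to 279 CPM in dsInR3 for ovary and germline, 37.5 to 79.1 CPM in dsInR1 and 43.3 to 69.5 CPM in dsInR3 for epidermis and trachea, and 15.4 to 20.6 CPM in dsInR1 and 12.5 to 23.2 CPM in dsInR3 for nervous tissue. The groups overlapped in all 6 sums, and 13 of 34 gut, 37 of 67 epidermis, 17 of 38 nervous and 1 of 18 muscle markers had no read in any of the 8 libraries. Single markers had an unadjusted edgeR p under 0.05: in the gut and Malpighian tubule list 4 of 14 tested were lower in dsInR1 and 1 was higher, in the ovary list 1 of 10 was lower and in the epidermis list 1 of 12. Of all tested genes, 5.75% were lower and 4.97% higher at that p. Without dsInR3 library 3 the lower counts were 2 for gut and 2 for epidermis, without dsInR3 library 6 they were 2 for gut and 2 for ovary, and without dsInR1 library 2 the ovary list had 3 lower and 1 higher. The gut markers were the maltases Mal-B1_4 (log2 fold change of dsInR1 over dsInR3 -0.94, SE 0.29) and Mal-B1_5 (-0.92, SE 0.38), ANPEP_0 (-1.10, SE 0.35) and celD (-0.54, SE 0.23), all lower, and the aquaporin C0J52_16363 (0.62, SE 0.16). The others were gcl (-0.65, SE 0.24) of the ovary list and the chitinase Chia_0 (-1.70, SE 0.50) of the epidermis list; DESeq2 called the aquaporin and Chia_0, and edgeR none. The part of these tissues in the results was not tested.

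No gene passed the test between dsInR1 and dsInR3. Of 28676 annotated genes, 9813 had enough reads to be tested, and edgeR's quasi-likelihood test called 0 of them at an adjusted p under 0.05, 0% of those tested, with a smallest adjusted p of 0.164. Without adjustment, 1052 genes or 10.7% had p under 0.05, of which 488 (4.97% of all tested) were higher in dsInR1 and 564 (5.75%) lower. That share was 8.11% without dsInR3 library 3, 9.74% without dsInR1 library 2 and 12.8% without dsInR3 library 6. For 636 genes (6.48%) the 4 dsInR1 libraries did not overlap the 4 dsInR3 libraries, 305 (3.11%) of them higher in dsInR1 and 331 (3.37%) lower. Limma-voom likewise called 0 genes. The DESeq2 Wald test called 188 genes or 1.92%, 77 (0.785%) higher in dsInR1 and 111 (1.13%) lower, of which 162 had groups that do not overlap. DESeq2 gave no adjusted p for 3444 genes. Its log2 fold changes, dsInR1 over dsInR3, ran over 0.36 to 1.79 among the higher genes (median 0.73) and over -2.22 to -0.31 among the lower ones (median -0.92). Since the tools differ, genes that only DESeq2 called are given below as values, with both tests.

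**Figure D1:**
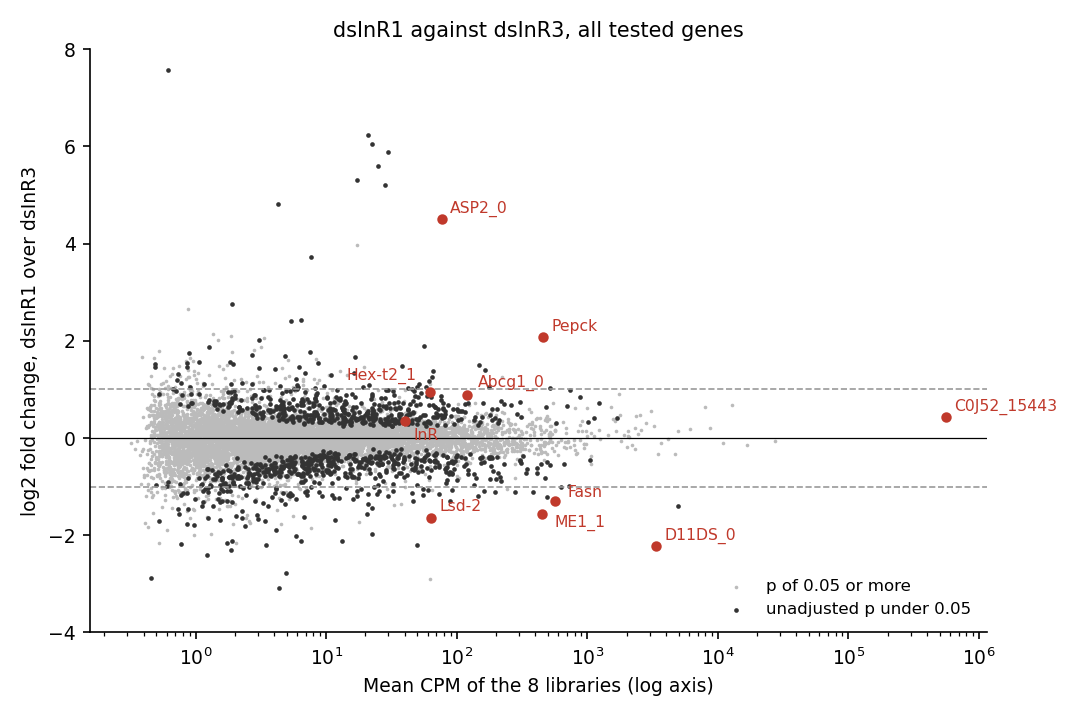
Fitted log2 fold change of dsInR1 over dsInR3 (vertical axis) against mean CPM of the 8 libraries (horizontal log axis) for 9813 tested genes; dark points have an unadjusted edgeR p under 0.05, red points are named genes and dashed lines mark a 2-fold difference. Most genes lie near 0, the lipid genes D11DS_0, ME1_1, Lsd-2 and Fasn lie among the lowest at their abundance, and Pepck lies high.

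Distances between the groups overlapped those within them. The root mean square log2 difference between a dsInR1 and a dsInR3 library had a median of 0.853 over 16 pairs, with a range of 0.657 to 1.01. Within dsInR1 the median over 6 pairs was 0.833 (0.751 to 0.934), and within dsInR3 it was 0.804 (0.686 to 0.964). On the first principal component of these 8 libraries, with 23.5% of the variance, dsInR1 libraries 2, 5, 6 and 7 lay at -42.1, -5.72, -12.7 and 6.08 and dsInR3 libraries 3, 5, 6 and 7 at 47.4, 19.2, -28.4 and 16.3. Library 2 was the lowest of dsInR1 and library 3 the highest of dsInR3, and dsInR3 library 6 lay among the dsInR1 libraries.

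The same procedure on the other pairs of groups, also with 4 libraries each, gives a scale for this result. It called 2639 genes (26.6%) in dsInR1 against dsInR2, 1625 (16.1%) in dsInR3 against dsInR2 and 2777 (27.7%) in dsInR2 against dsMock. It called 12 genes (0.121%) in dsInR3 against dsMock and 0 in dsInR1 against dsMock, where 374 (3.87%) had an unadjusted p under 0.05. These pairs share libraries with each other and with dsInR1 against dsInR3, so their counts are not independent.

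For most genes a large difference between dsInR1 and dsInR3 was excluded. A difference was called excluded where 2 one-sided tests against the bound in each direction both passed, with p-values adjusted over all tested genes at 0.05. By that measure a 2-fold or larger difference was excluded for 6998 genes (71.3%), a 3-fold one for 8843 (90.1%) and a 4-fold one for 9297 (94.7%). A 1.5-fold difference was excluded for 2215 genes (22.6%), a count that was 0 when any one of dsInR1 libraries 5, 6 and 7 or dsInR3 libraries 5, 6 and 7 was left out, 1456 without dsInR1 library 2 and 2310 without dsInR3 library 3. The median standard error of the log2 fold change was 0.23, which put the median 95% interval at the fitted value times or divided by 1.42.

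Precision was lowest in the weakest genes and highest between 10 and 1000 CPM. In the 3107 genes of 10 to 100 CPM, a 2-fold difference was excluded for 87.4% and the interval spanned a median factor of 1.28 on each side. In the 611 genes of 100 to 1000 CPM these were 84.5% and 1.3, and in the 4937 genes of 1 to 10 CPM they were 71.1% and 1.49. Below 1 CPM, 19.9% of 1109 genes allowed the exclusion, with a median factor of 2.06. Among the 49 genes at 1000 CPM or more, 73.5% did, with a median factor of 1.45.

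**Figure D2:**
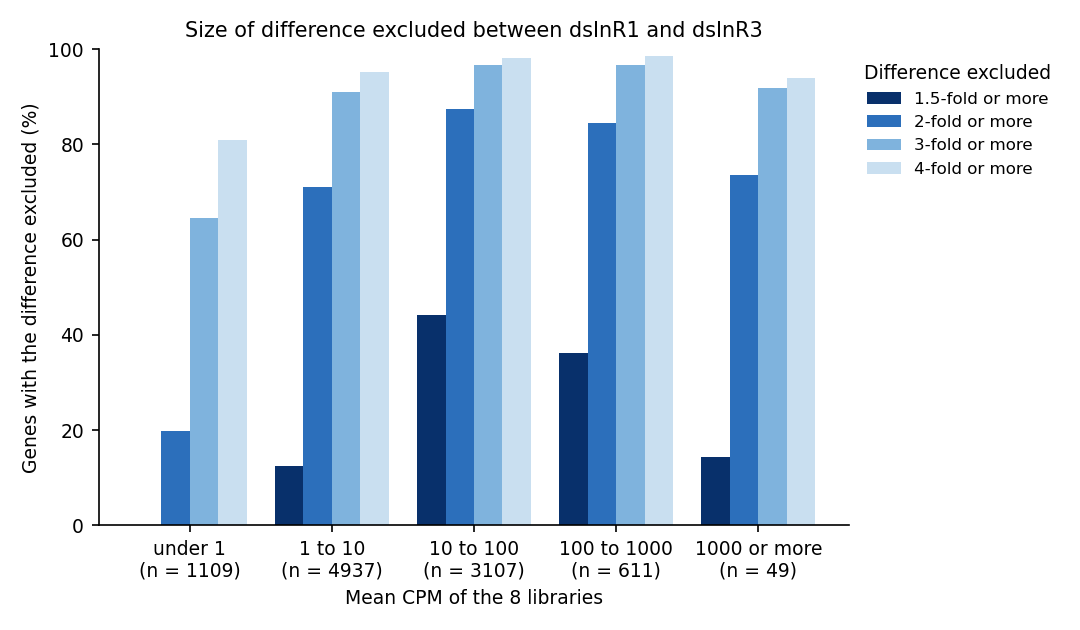
Percentage of tested genes (vertical axis) for which a difference between dsInR1 and dsInR3 of 1.5-, 2-, 3- or 4-fold or more was excluded, by mean CPM of the 8 libraries (horizontal axis, with the number of genes in each class). For a 2-fold bound the share is 19.9% below 1 CPM and 87.4% between 10 and 100 CPM.

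Among the narrowest intervals of named genes of at least 100 CPM, which show what the libraries can resolve, were those of 3 genes of the mitochondrial respiratory chain. NDUFS1, a complex I subunit, had 114, 112, 116 and 112 CPM in dsInR1 and 116, 120, 113 and 117 CPM in dsInR3, a ratio of 0.976 with a 95% interval of 0.845 to 1.13. Its complex I partner Ndufv1 had a ratio of 0.996 (0.857 to 1.16), and UQCRFS1_0 of complex III had 0.989 (0.845 to 1.16). For these 3 genes the groups overlapped, and the single-gene 95% intervals lay between ratios of 0.845 and 1.16. A further gene, poe_0, had 167, 166, 156 and 147 CPM in dsInR1 and 129, 140, 126 and 133 CPM in dsInR3, a ratio of 1.2 (1.03 to 1.41) with no overlap.

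At the other end stood genes that 1 or a few libraries decide. ASP2_0, the aspartic protease allergen Bla g 2 known from the cockroach gut, had 576, 1.4, 3.42 and 6.33 CPM in dsInR1 and 2.41, 9.71, 4.12 and 9.57 CPM in dsInR3. The fitted ratio of 22.7 (1.96 to 262) rests on dsInR1 library 2, and the log2 fold change of 4.50 was -0.79 without it. Its paralog ASP2_1 had 127 CPM in that library and at most 6.21 CPM in any other. The summed gut markers of that library, 360 CPM, were within the range of the other dsInR1 libraries. The most abundant of these markers, the maltase Mal-B1_3, weighs heavily in that sum, with 131 CPM there and 229 to 399 CPM in the other dsInR1 libraries. Why ASP2_0 and ASP2_1 were high in library 2 was not tested. GstD2_1, a glutathione S-transferase, was at 0 CPM in dsInR1 libraries 5 and 6 and dsInR3 library 6, at 31 and 27.9 CPM in the other dsInR1 libraries and at 112 to 179 CPM in the other dsInR3 libraries, a ratio of 0.133 (0.0109 to 1.62). Among genes with a product name, the 2 other widest intervals, of an IDLSRF-like peptide (C0J52_15291) and a coiled-coil protein (C0J52_26926), were those of genes at 0 CPM in 2 libraries of each group.

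The annotation holds 1 insulin receptor, InR (C0J52_14014, contig PYGN01000591.1 of Bger_1.1), with no statement of which of the 3 it corresponds to. It fell in dsInR2 against dsMock, with 118, 87, 217 and 178 reads in dsInR2 and 1022, 781, 766 and 929 reads in dsMock (log2 fold change -3.19, SE 0.23; edgeR adjusted p = 2.0e-04), while in dsInR1 and dsInR3 against dsMock it had -0.11 (SE 0.09) and -0.47 (SE 0.14), with adjusted p of 0.998 and 0.154. No gene is annotated as InR1 or InR3, so depletion of these targets was not checked here, and the values below are not those of a gene identified as either target. InR stood at 43.8, 46.8, 46.5 and 42.4 CPM in dsInR1 and at 27.6, 35.7, 42.6 and 34.8 CPM in dsInR3. In 15 of 16 pairs of libraries the dsInR1 value was the higher, and dsInR3 library 6 alone reached the dsInR1 range. The ratio was 1.28 with a 95% interval of 1.03 to 1.59 (log2 fold change 0.35, SE 0.14). It had an unadjusted edgeR p of 0.0313, an adjusted p of 0.423 and an exact permutation p of 0.0571, so no difference was called and a 2-fold one was excluded (adjusted p = 0.0018). Without dsInR3 library 3 the log2 fold change was 0.25.

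All 7 tested genes of insulin reception and signalling had a fitted value above 0, and 3 of them, InR and the 2 genes annotated as FoxO, had an unadjusted p under 0.05 (4.97% of all tested genes in that direction). The median log2 fold change was 0.35, against -0.00 over all tested genes, and 0.25 with 6 of 7 above 0 without dsInR3 library 3. FoxO is the transcription factor that insulin signalling holds back. The gene foxo_1 had 111, 96.3, 77.3 and 99.5 CPM in dsInR1 and 58.9, 61.3, 73.1 and 68.2 CPM in dsInR3. Every dsInR1 library was above every dsInR3 library, by a ratio of 1.47 (1.19 to 1.82), with adjusted p = 0.267 by edgeR and 0.0137 by DESeq2. The other, foxo_0, averaged 21 ± 2.61 CPM in dsInR1 and 14.6 ± 1.23 CPM in dsInR3 (SD, n = 4 each), again with no overlap and a ratio of 1.44 (1.18 to 1.76). Both lie on contig PYGN01001203.1 under the same product name, and how reads were divided between them is uncertain. For both a 2-fold difference was excluded.

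The remaining members were less separated. IGFBP, an insulin-like growth factor-binding protein, had 519, 416, 416 and 537 CPM in dsInR1 and 287, 311, 496 and 317 CPM in dsInR3 (log2 fold change 0.42, SE 0.20), with dsInR3 library 6 inside the dsInR1 range. Pdk1, the kinase that activates Akt, was at 25.4 to 31.9 CPM in dsInR1, whereas dsInR3 held both higher and lower libraries, at 10.3, 32.8, 33.5 and 15.4 CPM. The acid-labile subunit gene Igfals and the insulin-degrading enzyme IDE differed by 0.09 (SE 0.10) and 0.02 (SE 0.20) on the log2 scale, and a 2-fold difference was excluded for both.

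TOR signalling showed no common direction. Of its 14 tested genes, 6 lay above 0 and 8 below, with a median of -0.10, or 0.08 without dsInR3 library 6, and a 2-fold difference was excluded for 11. The GTPase Rheb, which activates TOR, had a ratio of 1.16 (0.952 to 1.41), the AMP-activated kinase subunit PRKAA2, which opposes TOR, 1.15 (0.956 to 1.37), and mlst8, a TOR complex subunit, 0.956 (0.75 to 1.22). Those with an unadjusted p under 0.05 were mxt, a translation initiation factor 4E-binding protein, at 5.86 ± 1.26 CPM in dsInR1 and 3.51 ± 0.592 CPM in dsInR3, and the Ragulator subunit LAMTOR5 (C0J52_07520), at 30.5 ± 3.27 CPM in dsInR1 and 40.5 ± 7.95 CPM in dsInR3 (SD, n = 4 each). The 3 genes for which a 2-fold difference was not excluded were mxt, the GTPase RRAGD, with a ratio of 0.904 (0.342 to 2.38), and the translation repressor Eif4ebp1, with 1.45 (0.957 to 2.18).

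**Figure D3:**
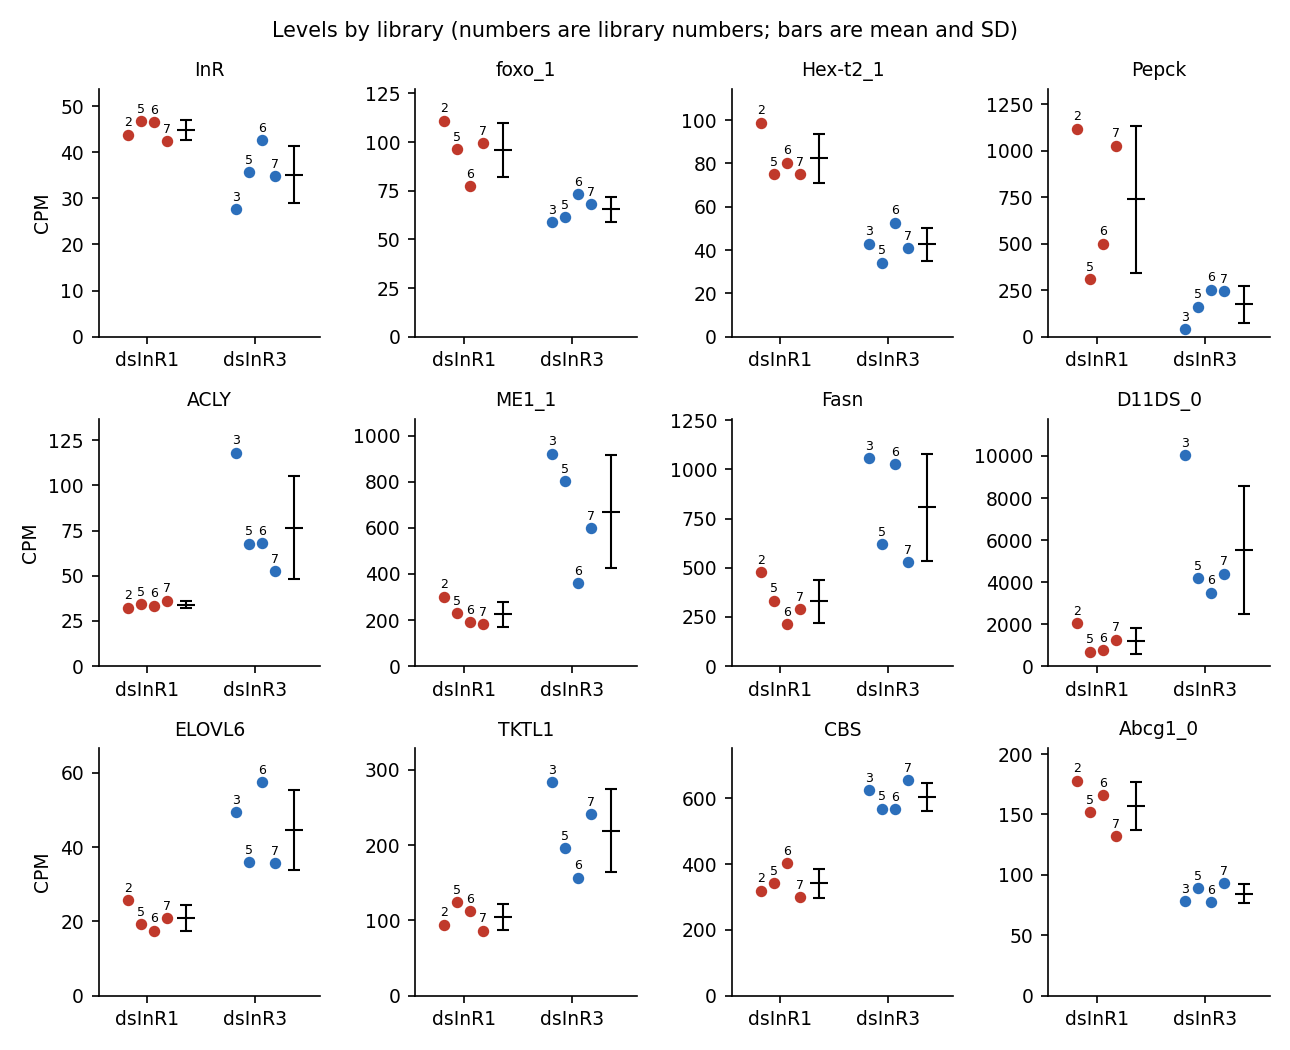
CPM (vertical axes, each from 0) of 12 genes in each dsInR1 library (red, left) and each dsInR3 library (blue, right), with library numbers; bars give mean and SD (n = 4). The 2 groups do not overlap for any gene shown except InR, where dsInR3 library 6, at 42.6 CPM, lies just above dsInR1 library 7, at 42.4 CPM. The 12 genes are a selection from the named genes and do not stand for all genes: groups did not overlap for 6.48% of all tested genes, and edgeR called 0.

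Of 19 tested genes of lipid synthesis, 6 had an unadjusted edgeR p under 0.05, all lower in dsInR1 (5.75% of all tested genes in that direction), and DESeq2 called the same number, while the list's median was 0.10, with 10 members above 0 and 9 below. The summed level of the list was 1658 to 3835 CPM in dsInR1 and 6009 to 13406 CPM in dsInR3, and without its most abundant member, the desaturase D11DS_0, it was 910 to 1783 CPM in dsInR1 and 2096 to 3372 CPM in dsInR3, so the sums did not overlap either way. Both sums are set by a few abundant members. No edgeR call was made for any member. Without dsInR3 library 3, 6 members had p under 0.05 and were lower, 1 was higher and the median was -0.03, and without dsInR3 library 6 the median was -0.23.

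The desaturase D11DS_0 (C0J52_17825), which introduces a double bond into fatty acyl chains, had 2056, 693, 748 and 1256 CPM in dsInR1 and 10046, 4191, 3501 and 4400 CPM in dsInR3. All dsInR1 libraries lay below all dsInR3 libraries, with dsInR3 library 3 far above its group. The log2 fold change was -2.22 (SE 0.44; edgeR adjusted p = 0.232, DESeq2 adjusted p = 3.3e-05), a level 4.66-fold higher in dsInR3, and it was -1.76 without library 3.

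ACLY, the ATP-citrate synthase that supplies acetyl-CoA in the cytosol, had 32.4, 34.3, 33.4 and 36.3 CPM in dsInR1 and 118, 67.8, 68 and 52.7 CPM in dsInR3. The dsInR1 libraries were nearly equal and all lay below dsInR3, with a log2 fold change of -1.17 (SE 0.23; edgeR adjusted p = 0.199, DESeq2 4.3e-04). The malic enzyme ME1_1, a source of NADPH for fatty acid synthesis, had 301, 229, 190 and 183 CPM in dsInR1 and 922, 802, 359 and 600 CPM in dsInR3. Its log2 fold change of -1.57 (SE 0.29) had an edgeR adjusted p of 0.174 and a DESeq2 adjusted p of 3.3e-05.

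Fatty acid synthase, Fasn, averaged 329 ± 110 CPM in dsInR1 and 808 ± 273 CPM in dsInR3, and the elongase ELOVL6 20.9 ± 3.52 CPM in dsInR1 and 44.6 ± 10.7 CPM in dsInR3 (SD, n = 4 each), both without overlap. Their log2 fold changes were -1.29 (SE 0.30) and -1.10 (SE 0.19), with edgeR adjusted p-values of 0.264 and 0.174 and DESeq2 ones of 0.00237 and 1.3e-04. GPAT4, which attaches the first fatty acid to glycerol, had 111, 106, 88 and 102 CPM in dsInR1 and 230, 155, 224 and 109 CPM in dsInR3, so that dsInR3 library 7 reached the dsInR1 range. Acetyl-CoA carboxylase, ACAC, the committed step of fatty acid synthesis, had 339, 120, 77.6 and 99.6 CPM in dsInR1 and 478, 212, 437 and 193 CPM in dsInR3. Its groups overlapped through dsInR1 library 2, and the log2 fold change of -1.05 (SE 0.49) had an unadjusted edgeR p of 0.0621.

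Of all tested genes, 5.75% were lower in dsInR1 at an unadjusted p under 0.05. Of 25 tested genes of lipid breakdown and storage, 3 had such a p, all lower in dsInR1, and the median was 0.01. Without dsInR3 library 3 there was 1 such gene and the median was -0.11, and without dsInR3 library 6 a further 6 were higher in dsInR1. The one of the 3 without overlap was Lsd-2, a perilipin that coats lipid droplets and protects stored fat. It had 23.1, 38, 26.6 and 35.6 CPM in dsInR1 and 195, 71.8, 62.8 and 55.6 CPM in dsInR3 (log2 fold change -1.64, SE 0.39; edgeR adjusted p = 0.264, DESeq2 0.00269), and the value was -1.04 without dsInR3 library 3.

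Sugar metabolism gave the largest number of separated genes. Of 27 tested genes, 15 had an unadjusted edgeR p under 0.05 and were lower in dsInR1, and 2 were higher. Of all tested genes, 5.75% were lower and 4.97% higher at that p. The list's median log2 fold change was -0.48. Without dsInR3 library 3 it was -0.39, with 13 genes lower and 2 higher. In the fit of all 16 libraries 11 were lower and 2 higher. Groups did not overlap for 11 of the lower and both higher genes, beside 3.37% lower and 3.11% higher of all tested genes. DESeq2 called 8 lower and 1 higher, and edgeR called none. The 15 lower genes hold 2 annotated as glyceraldehyde-3-phosphate dehydrogenase and 2 as glycogen synthase. How reads were divided within each of these pairs is uncertain, so members of a pair may not be separate observations.

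The steps of the pentose phosphate pathway, which makes NADPH and pentoses, were among the lower ones. ZW, glucose-6-phosphate dehydrogenase and its entry step, had 16.3, 16.6, 13.5 and 14.3 CPM in dsInR1 and 57, 20.1, 33.9 and 25 CPM in dsInR3 (log2 fold change -1.16, SE 0.29). TKTL1, a transketolase-like protein, had 94.4, 124, 112 and 86.2 CPM in dsInR1 and 284, 196, 157 and 241 CPM in dsInR3 (-1.08, SE 0.20). Transaldolase, TALDO1, and 6-phosphogluconate dehydrogenase, PGD, differed by -0.88 (SE 0.18) and -0.73 (SE 0.16), and all 4 of these genes had groups that did not overlap and DESeq2 adjusted p-values of 0.0122, 1.6e-04, 0.0014 and 0.00263. The lactonase Pgls of the same pathway averaged 22.6 CPM in dsInR1 and 23.3 CPM in dsInR3 and a log2 fold change of -0.05 (SE 0.23).

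In glycolysis, pyruvate kinase, PyK_0, the last step, had 546, 606, 475 and 327 CPM in dsInR1 and 1177, 769, 1157 and 748 CPM in dsInR3 (log2 fold change -0.98, SE 0.24; edgeR adjusted p = 0.264, DESeq2 0.00484). Phosphoglycerate kinase, Pgk, had -0.64 (SE 0.18), glucose-6-phosphate isomerase, Pgi, -0.49 (SE 0.12), the 2 genes of glyceraldehyde-3-phosphate dehydrogenase -0.42 (SE 0.15) and -0.48 (SE 0.17), and triosephosphate isomerase, Tpi, -0.38 (SE 0.12), each with no overlap between groups. Enolase, ENO_1, at -0.58 (SE 0.21), and phosphoglycerate mutase, PGAM1, at -0.51 (SE 0.19), did overlap. Phosphofructokinase, Pfk, the regulated step, had 4.39 CPM in dsInR1 and 3.56 CPM in dsInR3 on average, at 0.30 (SE 0.23). In glycogen metabolism, glycogen phosphorylase, GlyP, had -0.53 (SE 0.14), without overlap, and the 2 glycogen synthase genes GlyS_1 and GlyS_0 had -0.60 (SE 0.20) and -0.63 (SE 0.21), with overlap. The enzymes that release and that store glucose as glycogen were thus both at lower fitted values in dsInR1.

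Both genes of the list that were higher in dsInR1 handle other ends of the pathway. Pepck, phosphoenolpyruvate carboxykinase, which starts the synthesis of glucose and glycerol from other sources, had 1119, 310, 500 and 1027 CPM in dsInR1 and 38.6, 162, 253 and 244 CPM in dsInR3. Every dsInR1 library was above every dsInR3 library, the lowest was dsInR3 library 3, and the ratio was 4.24 with a 95% interval of 1.75 to 10.3 (edgeR adjusted p = 0.301, DESeq2 0.0545). The hexokinase Hex-t2_1, which traps glucose in the cell, had 98.9, 75, 80.4 and 75.2 CPM in dsInR1 and 42.9, 34.2, 52.7 and 40.9 CPM in dsInR3, a ratio of 1.93 (1.51 to 2.46; edgeR adjusted p = 0.168, DESeq2 3.3e-05). A second hexokinase, Hex-t2_0, had 121 CPM in dsInR1 and 132 CPM in dsInR3 on average and a log2 fold change of -0.13 (SE 0.19).

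**Figure D4:**
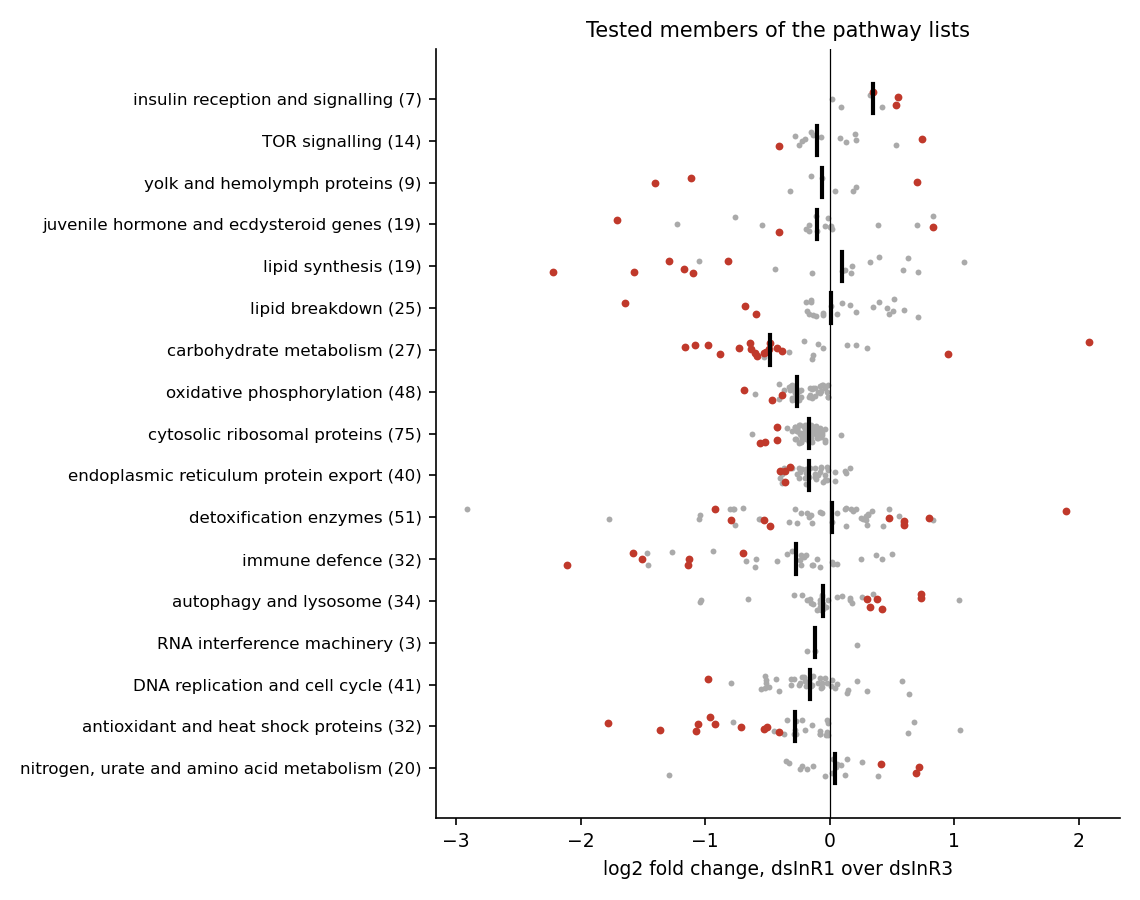
Fitted log2 fold change of dsInR1 over dsInR3 (horizontal axis) for each tested member of the 17 pathway lists (number tested in parentheses); red points have an unadjusted edgeR p under 0.05, black bars are list medians, and vertical scatter within a list has no meaning. Carbohydrate metabolism has its median at -0.48 and insulin reception and signalling at 0.35, beside -0.00 over all tested genes.

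The 9 tested genes of the yolk and hemolymph list are all hemolymph proteins, and none is annotated as a yolk protein. Whether a yolk protein is among the genes annotated as hypothetical was not examined. Of these, 1 had an unadjusted p under 0.05 and was higher in dsInR1, and 2 were lower, beside 4.97% higher and 5.75% lower of all tested genes. The list's median was -0.06, but 0.13 without dsInR3 library 3. HEXA, a hexamerin that stores amino acids, had 233, 305, 373 and 232 CPM in dsInR1 and 202, 107, 151 and 244 CPM in dsInR3 (ratio 1.62, 1.08 to 2.45). The Cr-PI allergens, hexamerin-like hemolymph proteins whose shared sequence makes the division of reads uncertain, ran apart from each other. CRPI_2 had 2880, 1476, 3282 and 3169 CPM in dsInR1 and 14134, 5358, 3871 and 5218 CPM in dsInR3 (log2 fold change -1.40, SE 0.43, and -0.83 without dsInR3 library 3). CRPI_1 had -1.11 (SE 0.35), CRPI_4 -0.32 (SE 0.34), CRPI_3 -0.15 (SE 0.31) and CRPI_0 0.04 (SE 0.25), and the values of CRPI_3 and CRPI_4 were 0.14 and 0.13 without library 3. For apolipophorin the ratio was 0.962 (0.662 to 1.4), and a 2-fold difference was excluded. Transferrin, TRF, an iron carrier, had 849, 237, 87.5 and 89.7 CPM in dsInR1 and 305, 237, 202 and 364 CPM in dsInR3, a spread that allows a ratio of 0.403 to 3.22.

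Among the other abundant genes, 5 annotated as hypothetical proteins (C0J52_15443, C0J52_10194, C0J52_00453, C0J52_12679 and C0J52_16302) had fitted log2 fold changes of 0.43, -0.10, 0.20, 0.19 and 0.15. A 2-fold difference was excluded for all but the first. The sixth, C0J52_05895, had 13531, 16231, 18485 and 14419 CPM in dsInR1 and 4380, 10674, 13135 and 10997 CPM in dsInR3. These groups did not overlap, and the log2 fold change was 0.68 (SE 0.33; edgeR adjusted p = 0.498, DESeq2 0.242). Catalase, Cat (C0J52_01914), which breaks down hydrogen peroxide, had 6287, 10691, 11277 and 10301 CPM in dsInR1 and 2396, 8957, 6611 and 6934 CPM in dsInR3, with overlap through dsInR1 library 2. For Cat a ratio of 0.858 to 2.79 remained possible. CYP15A1_3, a methyl farnesoate epoxidase named for an enzyme of juvenile hormone synthesis, averaged 3502 ± 1464 CPM in dsInR1 and 3779 ± 663 CPM in dsInR3 (SD, n = 4 each), a ratio of 0.927 (0.56 to 1.53).

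The machinery of respiration, translation and secretion differed little per gene, with a shared sign. All 48 tested genes of oxidative phosphorylation had a fitted value below 0, with a median of -0.26. A 2-fold difference was excluded for 46 of them, and 3 (beside 5.75% of all tested genes) were lower with an unadjusted p under 0.05, that with the smallest p being sdha of complex II at -0.69 (SE 0.20); 9 had p under 0.05 without dsInR3 library 6. Of 75 cytosolic ribosomal proteins, 74 lay below 0, with a median of -0.17 and 73 excluding a 2-fold difference. RpS9, with the smallest p of these, had 146, 158, 153 and 154 CPM in dsInR1 and 264, 186, 185 and 185 CPM in dsInR3. Of 40 genes of protein export from the endoplasmic reticulum, 35 lay below 0, with a median of -0.17. The shared sign leaned on single libraries: without dsInR3 library 3 the medians were -0.11 with 39 of 48 below 0 for oxidative phosphorylation and -0.04 with 55 of 75 below 0 for ribosomal proteins, and without dsInR1 library 2 that of protein export was -0.05 with 25 of 40 below 0. Of the 4 ribosomal and the 4 export genes with p under 0.05, all lower and beside 5.75% of all tested genes, 2 and 0 were counted without dsInR1 library 2, and 1 of the export list without dsInR3 library 3. With DESeq2's size factors the medians of these 3 lists were the same, -0.26, -0.17 and -0.17.

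Antioxidant and heat shock genes also leaned to lower values in dsInR1, with 10 of 32 lower at an unadjusted p under 0.05 and none higher. Of all tested genes, 5.75% were lower at that p. The list's median was -0.27. Without dsInR3 library 3 there were 7 lower and the median was -0.22. Without dsInR1 library 2 there were 10 lower and 1 higher. Hsp83, a chaperone of the HSP90 family, averaged 38.6 CPM in dsInR1 and 80.9 CPM in dsInR3, the copper-zinc superoxide dismutase Sod_1 11.7 CPM in dsInR1 and 30 CPM in dsInR3, the peroxiredoxin Jafrac1 92.7 CPM in dsInR1 and 180 CPM in dsInR3 and the mitochondrial chaperone Trap1_0 18.6 CPM in dsInR1 and 26.2 CPM in dsInR3. Groups did not overlap for any of these 4, and their log2 fold changes were -1.07 (SE 0.28), -1.36 (SE 0.31), -0.96 (SE 0.27) and -0.50 (SE 0.11). In the whole list, groups did not overlap for 6 of 32 genes, all lower, beside 3.37% of all tested genes. DESeq2 called these 4 among 6 in the list, all lower, beside 1.13% of all tested genes, and edgeR called none. Catalase, Cat, the most abundant member, had a fitted value above 0, at 0.63 (SE 0.38), with overlap.

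In immune defence, 6 of 32 genes had an unadjusted p under 0.05, all lower in dsInR1, beside 5.75% of all tested genes in that direction. All 6 are hemolymph lipopolysaccharide-binding proteins, lectin-like proteins that bind bacterial surfaces. Without dsInR3 library 3 the list had 4 lower, and without dsInR1 library 2 it had 5 lower and 1 higher. Without dsInR3 library 6 it had 9 lower. LPSBP_32 had 33.5, 25.4, 20.7 and 32.9 CPM in dsInR1 and 68.3, 60.8, 66.2 and 53 CPM in dsInR3 (log2 fold change -1.14, SE 0.17; edgeR adjusted p = 0.164, DESeq2 1.6e-06). Toll, Tl, the receptor of a defence pathway, had 455 ± 54 CPM in dsInR1 and 498 ± 51.5 CPM in dsInR3 (SD, n = 4 each), and a 2-fold difference was excluded. The family's similar sequences make the division of reads between its members uncertain.

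Autophagy and lysosome genes had 6 of 34 at an unadjusted p under 0.05, all higher in dsInR1, beside 4.97% of all tested genes in that direction. The list's median was -0.05. It had 3 higher and 1 lower without dsInR3 library 3, and 3 higher without dsInR1 library 2. ATG9A, a membrane protein of forming autophagosomes, had 31.5, 20.6, 20.7 and 20 CPM in dsInR1 and 11.1, 13.5, 14.4 and 16.8 CPM in dsInR3, and beclin, becn1, which starts autophagosome formation, averaged 46.3 CPM in dsInR1 and 35.7 CPM in dsInR3. Their log2 fold changes were 0.73 (SE 0.19) and 0.38 (SE 0.12), without overlap. CATL_5, a cathepsin L protease of the lysosome, had 1835 ± 120 CPM in dsInR1 and 1441 ± 434 CPM in dsInR3 (SD, n = 4 each), with overlap.

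Detoxification enzymes were spread on both sides, with 5 of 51 higher and 4 lower at an unadjusted p under 0.05, beside 4.97% higher and 5.75% lower of all tested genes, and a median of 0.02, which was -0.09 in the fit of all 16 libraries; without dsInR3 library 6, 9 were lower. GST1, a glutathione S-transferase, had 668, 370, 517 and 626 CPM in dsInR1 and 875, 756, 764 and 758 CPM in dsInR3 (-0.53, SE 0.19), and the cytochrome P450 Cyp6a14_0 averaged 30.7 ± 4.23 CPM in dsInR1 and 20.3 ± 3.58 CPM in dsInR3 (SD, n = 4 each; 0.60, SE 0.16). Nitrogen and amino acid metabolism had 3 of 20 higher and none lower, among them AGXT, a serine-pyruvate aminotransferase, at 1924 ± 212 CPM in dsInR1 and 1453 ± 186 CPM in dsInR3 without overlap (0.41, SE 0.16), and none of either sign without dsInR3 library 3 and 1 higher without dsInR1 library 2. Juvenile hormone and ecdysteroid genes had 1 of 19 higher, the nuclear receptor FTZ-F1 at 2.55 ± 0.62 CPM in dsInR1 and 1.43 ± 0.233 CPM in dsInR3 without overlap, and 2 lower. In DNA replication 1 of 41 genes was lower, thymidylate synthase, Tyms, at 1.2 ± 0.673 CPM in dsInR1 and 2.41 ± 0.522 CPM in dsInR3, and none of 3 genes of RNA interference had a p under 0.05, the nearest being Siwi, a Piwi protein, at 97.5 ± 5.36 CPM in dsInR1 and 83.7 ± 4.85 CPM in dsInR3.

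Outside the lists, the genes with the smallest p-values were of mixed function and none passed. Abcg1_0, an ABC transporter of the family that exports sterols in mammals, had 178, 152, 166 and 132 CPM in dsInR1 and 78.3, 88.8, 77.3 and 93.3 CPM in dsInR3, a ratio of 1.86 (1.52 to 2.28). CBS, cystathionine beta-synthase, which moves sulfur from homocysteine towards cysteine, had 320, 343, 404 and 300 CPM in dsInR1 and 625, 569, 568 and 655 CPM in dsInR3 (log2 fold change -0.82, SE 0.13). In both genes the groups did not overlap, with edgeR adjusted p = 0.164 and DESeq2 adjusted p of 3.5e-07 and 5.0e-07. The phosphatase Aph4_1, the dehydrogenase HIBADH of valine breakdown and the nuclear migration protein NUDC_1 had log2 fold changes of -0.97 (SE 0.15), -1.20 (SE 0.20) and -0.79 (SE 0.14). The small GTPase Rhou, the extracellular matrix protein SPON1 and D2hgdh, which oxidises 2-hydroxyglutarate, had 0.98 (SE 0.17), 0.91 (SE 0.17) and 1.08 (SE 0.20). None of these 8 genes overlapped between groups, beside 6.48% of all tested genes without overlap. They were picked for small p-values in this same comparison, which favours such separation, so it adds no support.

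A further 8 genes in the set of 20 with the smallest p-values are hypothetical proteins. C0J52_01627 had 12, 27, 22 and 25 reads in dsInR1 and 0 reads in all 4 dsInR3 libraries, which puts it at least 34.6-fold higher in dsInR1 against a floor of 3 counts over the dsInR3 group; the floor covers counting error only. It also had 0 reads in 3 dsInR2 libraries and 1 dsMock library, with 21 reads in the other dsInR2 library and 8, 14 and 34 in the other dsMock libraries. C0J52_11160 was lower in dsInR1, at 9.5 ± 1.82 CPM against 22.7 ± 3.71 CPM in dsInR3, and C0J52_00176, C0J52_04785, C0J52_19998, C0J52_00719, C0J52_13021 and C0J52_08783 had fitted log2 fold changes of 0.72, 1.54, 1.76, 1.03, 0.69 and 0.73.

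Each group was also set against dsMock in a fit of its own. The 2 comparisons share the 4 dsMock libraries, so their values are given side by side only. Each also reuses the dsInR1 or dsInR3 libraries of the main comparison. Genes picked there for a difference are therefore favoured to differ here too, and their values are no independent test. Pepck had a log2 fold change of -0.11 in dsInR1 against dsMock and -2.20 in dsInR3 against dsMock (adjusted p = 0.998 and 0.164). In the same order, dsInR1 against dsMock and then dsInR3 against dsMock, ACLY had -0.13 and 1.04, D11DS_0 -0.24 and 1.97, ELOVL6 -0.02 and 1.07, ZW -0.13 and 1.03 and foxo_1 -0.08 and -0.64, and the smallest adjusted p among them was 0.11. Again for dsInR1 against dsMock and then dsInR3 against dsMock, Fasn had -0.48 and 0.81 and ME1_1 -0.74 and 0.83. For other named genes the value for dsInR1 against dsMock was the farther from 0. In the same order, the aquaporin C0J52_16363 had 0.58 and -0.04, HIBADH -0.85 and 0.35, AGXT 0.65 and 0.24 and Aph4_1 -0.54 and 0.42. Their edgeR adjusted p was 0.998 in dsInR1 against dsMock. Of the genes with the smallest p between dsInR1 and dsInR3, SPON1, D2hgdh, C0J52_00176, C0J52_00719 and C0J52_08783 fell in dsInR3 against dsMock, all 5 of the genes called lower there (0.0504% of those tested; adjusted p = 0.0459 for each; log2 fold changes -1.18, -1.37, -0.89, -1.51 and -1.06), while in dsInR1 against dsMock they had -0.26, -0.29, -0.16, -0.47 and -0.32.

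The direction of the difference was last compared with the response to dsInR2, for which dsInR2 was set against dsMock. That comparison shares no library with dsInR1 against dsInR3. It called 1446 genes (14.4%) higher and 1331 (13.3%) lower in dsInR2. Of 9625 genes tested in both, 1391 rose and 1322 fell in dsInR2. Of the risen genes, 1131 (81.3%) had a lower fitted value in dsInR1 than in dsInR3, with a median log2 fold change of -0.26. Of the fallen genes, 963 (72.8%) had a higher one, with a median of 0.14, beside 50.5% lower and a median of -0.00 over all common genes. Across the 9625 genes the correlation between the log2 fold changes of the 2 comparisons was r = -0.31, as a description over genes, which are not independent replicates. Among DESeq2's 111 calls lower in dsInR1, 72 had risen and 2 had fallen in dsInR2, and among its 77 higher calls, 28 had fallen and 7 had risen. Without dsInR3 library 3 the shares were 73.3% and 63%, the medians -0.15 and 0.07, and r was -0.18. The correlation also depended on the filter of genes. It was -0.08 over 14555 genes with no filter, where the shares were 82.1% and 72.4%, and -0.36 over 8577 genes with at least 1 CPM in 4 libraries.

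Library by library, the mean log2 level of the risen minus that of the fallen genes was placed on a scale from 0 at the dsMock mean to 100 at the dsInR2 mean. The dsInR1 libraries 2, 5, 6 and 7 scored 18.2, 6.79, -0.0864 and 4.35, a mean of 7.31 ± 7.79 (SD, n = 4). The dsInR3 libraries 3, 5, 6 and 7 scored 47.4, 19, 12.5 and 21.8, a mean of 25.2 ± 15.3 (SD, n = 4). Library 3 was the highest of dsInR3, and dsInR1 library 2 lay above dsInR3 library 6, so the groups overlapped. The genes were chosen on the dsInR2 and dsMock libraries, so the distance between those 2 groups on this scale is fixed by the choice.

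**Figure D5:**
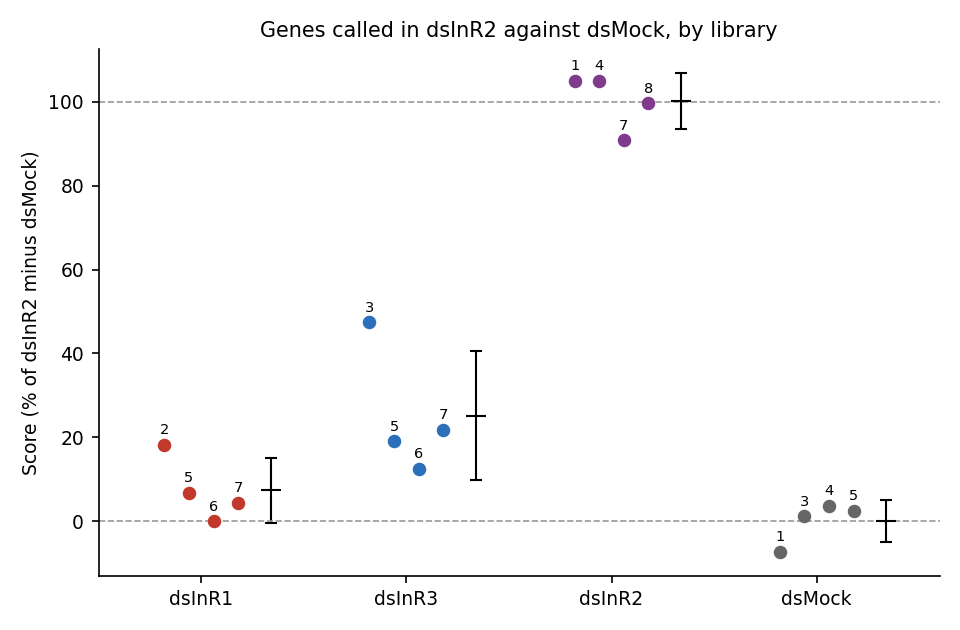
Score of each library (vertical axis, percent of the distance from the dsMock mean to the dsInR2 mean) over the genes that rose minus those that fell in dsInR2 against dsMock, by group, with library numbers and mean and SD (n = 4). The dsInR1 libraries lie between -0.0864 and 18.2 and the dsInR3 libraries between 12.5 and 47.4.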

How the data were processed

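PolyA RNA of fat body was sequenced in 16 libraries after TruSeq Stranded preparation, per the labels' protocols. The values are read counts per gene, deposited by the authors as whole numbers that were not normalized. FastQC, Trimmomatic, HISAT2 and StringTie appear in the submitters' processing notes; versions, settings, use of strand and the treatment of reads matching several genes are not given in the sources used here. A further 32 columns of per-library values were not used. Columns carry a group and a number that is not a title replicate, so they were assigned to groups only; the control columns were taken as dsMock, the only group left. All 28676 locus tags matched the Bger_1.1 annotation, where 21971 are hypothetical proteins.

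The 8 libraries of dsInR1 and dsInR3 were fitted alone with edgeR 4.0.16 in R 4.3.3 (filterByExpr, TMM, quasi-likelihood test, two-sided, Benjamini-Hochberg over all tested genes, threshold 0.05), with log2 fold changes as dsInR1 over dsInR3. Intervals of 95% and the tests of exclusion use the fitted standard error and the total degrees of freedom. DESeq2 1.42.0, limma 3.58.1, other filters and scalings, all 16 libraries, a replicate block and leaving out each library were alternatives. Single values were tested by exact permutation in scipy 1.17.1. The scripts were tested on simulated data. A floor of 3 counts was used for a group at 0; such floors and reads without molecular identifiers cover counting error only.

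Named genes were the 20 smallest p-values (none passed), the 10 most abundant genes, all tested genes of insulin signalling, TOR signalling and hemolymph proteins, selected metabolic genes, the most abundant and smallest-p member of each other list, and the 5 narrowest (of at least 100 CPM) and 5 widest intervals among genes with a product name; 2 of these genes are not reported here. Further members of the lipid synthesis and carbohydrate lists with p under 0.05, other list members and the genes of the closing section were chosen after their values were seen. The comparison, the 17 pathway lists and the 6 marker lists, which are patterns of product names, were chosen with earlier results of these data known, and false matches were removed by product name after a first look at the fit. Depth was 15.5 to 21.6 M reads per library, and the median standard error of a log2 fold change was 0.23.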

Additional observations from a re-analysis of the deposited data

Results flagged for a closer look

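In 21 of 244 groups of 4 libraries examined over the named values, the highest or lowest library stood apart from the other 3 by more than the 95% critical value of Dixon's test; chance marks about 1 in 20 such groups, and many of these genes are not independent. In dsInR3, library 3 stood apart for the hemolymph proteins CRPI_2 (14134 CPM), CRPI_4 (9422 CPM) and CRPI_1 (946 CPM), the lipid genes D11DS_0 (10046 CPM) and Lsd-2 (195 CPM), RpS9 (264 CPM), GST1 (875 CPM), the germline gene gcl (2.82 CPM, the lowest) and the share of reads from C0J52_15443 (35.1%). In dsInR1, library 2 stood apart for ASP2_0 (576 CPM), ASP2_1 (127 CPM), ACAC (339 CPM), C0J52_13021 (89.5 CPM), ATG9A (31.5 CPM) and mlst8 (13.9 CPM), library 6 for Gapdh_0 (100 CPM) and library 7 for Pgk (58.7 CPM). In dsInR3, library 6 stood apart for IGFBP (496 CPM) and C0J52_04785 (7.07 CPM), and library 5 for the muscle gene sls_1 (33 CPM) and ASP2_1 (6.21 CPM). Without dsInR3 library 3, the log2 fold change of Lsd-2 was -1.04 in place of -1.64 and that of D11DS_0 was -1.76 in place of -2.22. Why these libraries stood apart was not tested.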

How the results depend on the processing

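The count of edgeR calls was 0 under every scaling and filter tried, in the fit of all 16 libraries, in the robust fit, without C0J52_15443 and with limma-voom. It was 188 with DESeq2 and 0 to 1 when single libraries were left out: the hypothetical gene C0J52_04785 without dsInR3 library 6 (edgeR adjusted p = 0.0147) and C0J52_07472, named for this call alone, without dsInR3 library 5 (edgeR adjusted p = 0.0224). The unadjusted count under 0.05 was 8.11% to 12.8% of the genes tested when a library was left out. The number of genes with a 2-fold difference excluded was 6366 to 7014 under the other alternatives and 6199 to 6907 without single libraries. For 1.5-fold it was 877 with no filter, 0 with the replicate block against 2091 in the same 6 libraries without it, and 0 to 2310 without single libraries. The InR log2 fold change stayed above 0 throughout, at 0.25 to 0.46 without single libraries, 0.27 with the block and 0.26 without it in the same libraries.

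Column numbers 5, 6 and 7 occur in both groups. The deviations of same-numbered libraries correlated at 0.052, 0.095 and 0.189, and those of different-numbered libraries at -0.173 to 0.083. Number 5 of dsInR1 correlated better with number 6 of dsInR3 than with number 5. With 3 libraries per group, each set against its own group mean, these values cannot decide whether a shared number pairs libraries. The block over these 6 libraries therefore rests on the number alone. With the block 0 genes were called, and 0 without it.

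Of 118 named genes other than InR, some that lay near 0 or rested on 1 library reversed. With limma-voom these were C0J52_08590 at -0.42 and C0J52_26926 at -0.24. With the replicate block, and in brackets the same 6 libraries without it, they were C0J52_04356 at -0.01 (-0.00), C0J52_01003 at -0.05 (-0.08), C0J52_08590 at -1.08 (-0.96), C0J52_09986 at 0.06 (0.07), C0J52_12784 at -0.10 (-0.08), C0J52_13389 at -0.24 (-0.29), C0J52_12863 at 0.03 (0.03), C0J52_00362 at -1.17 (-1.07) and C0J52_17816 at -1.03 (-2.03). Without single libraries the ranges were -0.11 to 0.18 for C0J52_01003, -1.0 to 0.50 for C0J52_08590, -0.31 to 0.13 for C0J52_09986, -0.04 to 0.22 for C0J52_12784, -0.17 to 0.33 for C0J52_13389, -0.04 to 0.01 for C0J52_12863, -0.36 to 1.17 for C0J52_26926, -0.79 to 4.91 for C0J52_00362, -1.81 to 5.65 for C0J52_17816, -0.11 to 0.13 for C0J52_04356, -0.77 to 0.24 for C0J52_03026, -0.13 to 0.05 for C0J52_00889, -0.34 to 0.14 for C0J52_20295, -0.22 to 0.04 for C0J52_10194, -0.05 to 0.29 for C0J52_16302, -0.48 to 0.02 for C0J52_19576, -0.47 to 0.13 for C0J52_20296, -0.16 to 0.08 for C0J52_13789 and -0.05 to 0.03 for C0J52_22364. The cause was not tested. DESeq2 called 41 named genes that edgeR did not; no other value changed its direction or its side of the threshold. Genes below 1 CPM are limited by depth, with a median interval of a factor of 2.06 on each side.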

Other observations

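Most of the largest fitted differences belonged to genes annotated as hypothetical proteins that were high in 1 library. In all, 7 genes had a log2 difference of 5 or more. Apart from C0J52_01627, the other 6 (C0J52_18938, C0J52_18939, C0J52_18940, C0J52_18941, C0J52_24076 and C0J52_27778) were at 127 to 225 CPM in dsInR1 library 5 and at most 6.14 CPM in any of the other 7 libraries. The first 4 of these follow each other on contig PYGN01000326.1. Their fitted log2 fold changes were 6.24, 5.21, 5.59, 5.88, 5.31 and 6.05, none with an adjusted p below 0.304, and they lay between 1.14 and 1.94 without dsInR1 library 5. They were chosen after their values were seen, and the high level in 1 library has no replicate.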
